A study of Mus musculus with 12 samples.

Results

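The 10 genes described here encode the core of the NF-kB switch in mouse hippocampal tissue: the subunits Rela, Relb, Nfkb1 and Nfkb2, the IKK family kinases and scaffold Ikbkb, Chuk, Ikbke and Ikbkg, and the inhibitors Nfkbia and Nfkbie. They are 10 of the 27978 genes of the deposited table, and all 10 were found there by symbol. They were selected on their role in the pathway with the levels and group differences of these libraries already known, so the group differences below are descriptions and carry no test of their own. Total RNA was sequenced from 12 libraries, 4 in each of 3 groups of mice that had all received a fecal microbiota transplantation (FMT). The groups are FMT-SP (named FMT-DSS+SP in the design text, SP being the neuropeptide substance P), FMT-DSS and FMT-CON. The labels do not spell out DSS or CON, name the donors of the microbiota, the strain, age or sex of the mice or the dose of substance P, and no library of mice without a transplantation was analysed here. They also do not say that each library is a separate animal, so the spread between libraries may be technical. The design sets FMT-SP against FMT-DSS, which asks what substance P adds, then FMT-DSS against FMT-CON, which asks how the DSS arm differs, and lastly FMT-SP against FMT-CON. The first 2 comparisons share the same 4 FMT-DSS libraries and are not independent of each other.

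NF-kB is a family of dimeric transcription factors that most cells hold inactive in the cytoplasm, bound by IkB proteins. In the canonical pathway a complex of IKKbeta (Ikbkb), IKKalpha (Chuk) and the scaffold NEMO (Ikbkg) marks IkB-alpha (Nfkbia) for degradation, and dimers of RelA (Rela) with p50, made from the Nfkb1 precursor, enter the nucleus. In the noncanonical pathway IKKalpha acts on the Nfkb2 precursor, which is then processed to p52, the partner of RelB (Relb). Several genes of the pathway, Nfkbia, Nfkb2 and Relb among them, are themselves targets of NF-kB, so that the switch feeds back on its own parts. In brain tissue NF-kB is known both for inflammatory responses of glia and vessels and for activity in neurons.

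Levels are the authors' FPKM values, which divide the fragments of a gene by its transcript length and by the library's mapped total. Differences between groups are on the log2(FPKM + 1) scale with their standard error (SE), from a limma fit over all 12 libraries. Of the 10 genes, 6 averaged the 1 FPKM that the test required, and Nfkb2, Relb, Ikbke and Nfkbie were read from the same fit with a minimum of 0.1 FPKM. The depth of each library was estimated from the steps between low values at 31.45 to 37.25 M mapped fragments (the largest 1.18 times the smallest).

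The DNA element that NF-kB dimers bind is a 10-base consensus called the kappaB site, and the sequences below are shown because some of these genes hold it beside their own start. RefSeq gives a promoter window (250 bases before to 50 bases after the start site, GRCm38.p6) for 7 of the 10 genes: Rela, Nfkb2, Ikbkg, Ikbke, Chuk, Nfkbia and Nfkbie. Together they have 12 windows, and 5 windows of 3 genes (Nfkb2, Nfkbia and Nfkbie) held a match on either strand, against 4.51% of all 32851 windows and 5.14% of all 27025 genes. The 4 windows of Ikbkg and the windows of Rela, Ikbke and Chuk held none. Each sequence runs 5′ to 3′ on the strand of its gene, with matches in capitals. The Nfkb2 window is on the plus strand at chr19:46304487-46304786, that of Nfkbia on the minus strand at chr12:55492598-55492897, that of Nfkbie on the plus strand at chr17:45555450-45555749 and that of Rela, shown as one with no match, on the plus strand at chr19:5637291-5637590.
Nfkb2: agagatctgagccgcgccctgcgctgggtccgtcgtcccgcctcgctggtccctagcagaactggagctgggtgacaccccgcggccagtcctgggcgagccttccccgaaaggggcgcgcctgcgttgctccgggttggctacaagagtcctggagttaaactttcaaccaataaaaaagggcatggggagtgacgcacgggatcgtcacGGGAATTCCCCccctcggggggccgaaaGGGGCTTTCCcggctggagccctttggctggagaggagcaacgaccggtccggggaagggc
Nfkbia: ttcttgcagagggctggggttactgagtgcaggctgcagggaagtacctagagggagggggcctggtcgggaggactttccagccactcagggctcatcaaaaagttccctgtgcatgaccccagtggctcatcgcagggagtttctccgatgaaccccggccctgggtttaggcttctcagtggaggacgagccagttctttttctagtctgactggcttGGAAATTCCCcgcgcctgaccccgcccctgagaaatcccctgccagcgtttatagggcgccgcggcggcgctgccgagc
Nfkbie: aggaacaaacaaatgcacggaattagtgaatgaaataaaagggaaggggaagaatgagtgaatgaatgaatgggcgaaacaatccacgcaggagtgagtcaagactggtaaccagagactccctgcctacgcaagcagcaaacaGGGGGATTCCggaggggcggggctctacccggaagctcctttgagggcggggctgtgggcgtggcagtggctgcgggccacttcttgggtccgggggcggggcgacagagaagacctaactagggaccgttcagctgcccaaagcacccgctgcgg
Rela: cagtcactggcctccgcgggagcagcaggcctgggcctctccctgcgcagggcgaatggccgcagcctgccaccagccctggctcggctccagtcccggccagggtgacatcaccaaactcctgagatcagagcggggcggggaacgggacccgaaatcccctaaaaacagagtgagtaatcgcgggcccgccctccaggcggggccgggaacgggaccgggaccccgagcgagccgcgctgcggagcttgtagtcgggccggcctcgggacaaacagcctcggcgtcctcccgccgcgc

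In this first Nfkb2 window the match GGGAATTCCC reads the same on both strands, from base -39 to -30 before the start site, and overlaps by all but 1 base a second match, GGAATTCCCC on the opposite strand. Another match, GGGGCTTTCC, ends 2 bases before the start site. Only 17 of all windows, or 0.0517%, held at least 3 matches. A second Nfkb2 start site, with its window at chr19:46305445-46305744, has 2 more matches, shown here with 10 bases on each side. The second of them also lies in the overlapping window of the third start site.
Nfkb2, bases -236 to -227 of the second start: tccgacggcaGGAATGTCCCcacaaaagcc
Nfkb2, bases 11 to 20 of the second start: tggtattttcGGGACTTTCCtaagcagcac

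The single match of Nfkbia, GGAAATTCCC, lies at bases -29 to -20 before its start, and that of Nfkbie, GGGGGATTCC, lies at bases -106 to -97. A match describes letters in a window and does not show that a factor binds there. The map of the windows shows which of the genes hold a match: Nfkb2 has both, Rela, Ikbkg and Ikbke, described next, separate the groups without a match in these windows, and Nfkbie has a match and overlaps in every comparison.

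**Figure D1:**
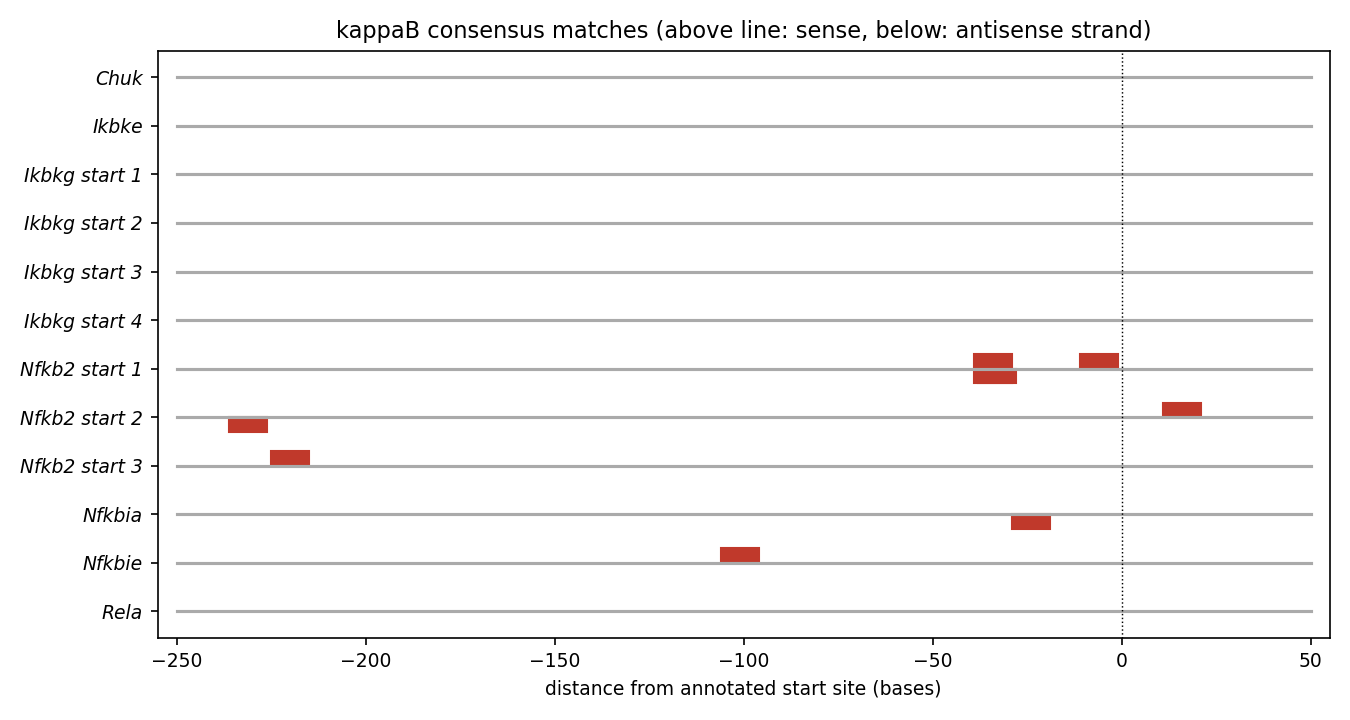
Positions of kappaB consensus matches (boxes) in the RefSeq promoter windows of 7 NF-kB genes, with distance from the start site in bases on the x axis and 1 line for each start site. Matches lie in 5 of the 12 windows, all of Nfkb2, Nfkbia or Nfkbie.

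The 10 genes did not move as a block. The genes Rela, Relb, Nfkb2, Ikbkg and Ikbke stood lower in every FMT-SP library than in any FMT-DSS library, and the same 5 stood higher in every FMT-DSS library than in any FMT-CON library. None of the 10 separated FMT-SP from FMT-CON. Nfkb1, Ikbkb and Nfkbie overlapped in all 3 comparisons, and Chuk and Nfkbia had their highest means in FMT-DSS but overlapped. No gene passed the limma test at a Benjamini-Hochberg adjusted p of 0.05 in any comparison, whether among these 10 (0 called) or among all 12559 genes tested (0% called in each). The smallest adjusted p over all genes was 0.999 for FMT-SP against FMT-DSS, 0.966 for FMT-DSS against FMT-CON and 1 for FMT-SP against FMT-CON. At an unadjusted p under 0.05 limma marked 3 of the 6 tested members (Rela, Ikbkg and Nfkbia) in FMT-SP against FMT-DSS, where it marked 2.5% of all genes. It marked 4 (these and Chuk) in FMT-DSS against FMT-CON, beside 4.06% of all genes, and 0 in FMT-SP against FMT-CON, beside 0.358%.

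Groups of 4 that do not overlap are rare in this table, which gives the scale for the counts above. Among 17321 genes that averaged 0.1 FPKM or more, 0.808% were lower and 0.779% higher in every FMT-SP library than in any FMT-DSS library, against 5 lower and 0 higher of the 10. In FMT-DSS against FMT-CON 0.548% were higher and 1.35% lower throughout, against 5 higher and 0 lower of the 10. In FMT-SP against FMT-CON 0.277% were higher and 0.479% lower, against 0 of the 10. Since these genes were selected with the differences known, nothing is read from these counts about the family.

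**Figure D2:**
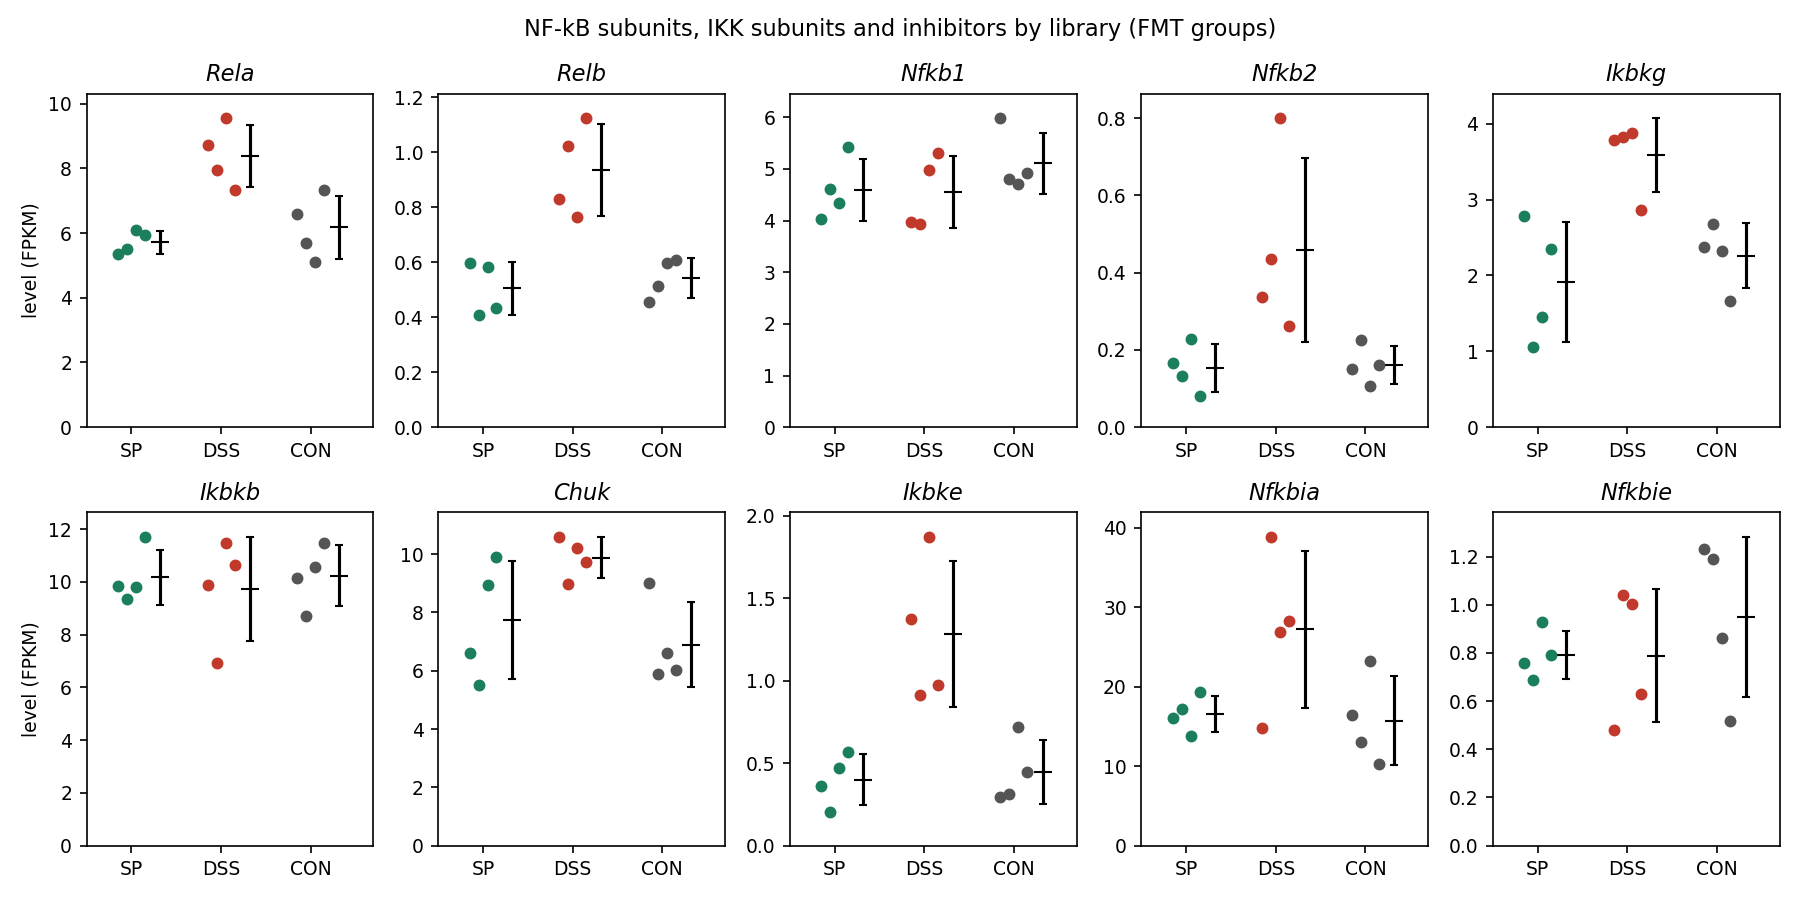
Level in FPKM (y axis, each panel from 0) of the 10 genes in each of the 12 libraries (points) with group means and SD (bars), n = 4 a group. In Rela, Relb, Nfkb2, Ikbkg and Ikbke all 4 FMT-DSS points lie above all 8 others.

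Rela encodes the subunit p65, which carries the transactivation domain of the canonical dimer; the gene lies on chromosome 19 (GRCm38, 5637483 to 5648130, plus strand). It had 5.34, 5.50, 6.09 and 5.95 FPKM in FMT-SP libraries 1 to 4, against 8.71, 7.94, 9.55 and 7.34 FPKM in FMT-DSS and 6.58, 5.70, 5.10 and 7.32 FPKM in FMT-CON. The FMT-SP values were the tightest of the 3 groups, and FMT-DSS 4 lay just above FMT-CON 4. That last separation, from FMT-CON, was lost when mitochondrially encoded genes were left out of the scaling. The difference was -0.48 (SE 0.11) for FMT-SP against FMT-DSS, a ratio of means of 0.682. It was 0.39 (SE 0.11) for FMT-DSS against FMT-CON, a ratio of 1.36, and -0.09 (SE 0.11) for FMT-SP against FMT-CON. In FMT-SP against FMT-DSS Rela had the smallest unadjusted limma p of all 12559 genes. The other tested members ranked 5 (Ikbkg), 246 (Nfkbia), 399 (Chuk), 7515 (Ikbkb) and 11351 (Nfkb1). Since the genes were selected with their differences known, these ranks are descriptions.

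Relb, on chromosome 7 (19606217 to 19629438, minus strand), encodes the RelB subunit that pairs with p52 at the end of the noncanonical pathway. Its level was far below that of Rela, at 0.596, 0.409, 0.581 and 0.433 FPKM in FMT-SP, 0.831, 1.02, 0.766 and 1.12 FPKM in FMT-DSS and 0.455, 0.512, 0.598 and 0.609 FPKM in FMT-CON. All 8 libraries outside FMT-DSS lay at or under 0.609 FPKM. The ratio of means was 0.539 for FMT-SP against FMT-DSS and 1.72 for FMT-DSS against FMT-CON, with differences of -0.36 and 0.32 (SE 0.08 each) that the added 1 FPKM shrinks in so low a gene.

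The precursor genes differed from each other in pattern. Nfkb1, on chromosome 3 (135584655 to 135691547, minus strand), is the source of p50. It had 4.03, 4.61, 4.33 and 5.42 FPKM in FMT-SP, 3.98, 3.94, 4.98 and 5.31 FPKM in FMT-DSS and 5.98, 4.81, 4.71 and 4.91 FPKM in FMT-CON. The groups overlapped throughout, with differences of 0.01 (SE 0.12) for FMT-SP against FMT-DSS and -0.14 (SE 0.12) for FMT-DSS against FMT-CON. Without FMT-SP 4, however, every FMT-SP value of Nfkb1 lay under every FMT-CON value.

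Nfkb2, on chromosome 19 (46304320 to 46312385, plus strand), is the source of p100 and p52 and had the lowest level of the 10. It stood at 0.166, 0.133, 0.229 and 0.0814 FPKM in FMT-SP, 0.336, 0.434, 0.800 and 0.261 FPKM in FMT-DSS and 0.151, 0.225, 0.105 and 0.160 FPKM in FMT-CON. FMT-DSS 3 was well above every other library, and the lowest FMT-DSS library, number 4, cleared the highest FMT-SP library by a small margin. Over the longest annotated transcript of 3846 bases these values correspond to about 23, 17, 32 and 11 fragments in FMT-SP, 47, 62, 97 and 35 in FMT-DSS and 21, 32, 15 and 21 in FMT-CON, so counting error is a large part of its spread. The ratio of means was 0.333 for FMT-SP against FMT-DSS and 2.86 for FMT-DSS against FMT-CON, with differences of -0.33 and 0.32 (SE 0.10 each). Without FMT-DSS 3 the second became 0.21.

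Strand matters for Nfkb2, because the labels do not say whether the counting used it. Its exons share 299 bases with Psd, a gene on the opposite strand that averaged 50.6 FPKM, and 531 bases with a bidirectional promoter lncRNA, also on the opposite strand, for which no level was used here. Psd had 53.0, 47.6, 42.7 and 60.4 FPKM in FMT-SP, 51.4, 52.0, 50.4 and 58.9 FPKM in FMT-DSS and 32.2, 46.9, 55.3 and 56.5 FPKM in FMT-CON. Its groups overlapped in every comparison, and FMT-DSS 3, the highest library for Nfkb2, had the lowest Psd value of FMT-DSS. Reads of Nfkb2 and these genes cannot be told apart over the shared bases if strand was not used.

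Among the parts of the IKK complex, the scaffold gene separated the groups. Ikbkg, on the X chromosome (74393290 to 74453854, plus strand), encodes NEMO, without which the canonical kinases are not activated. It had 2.78, 1.06, 1.45 and 2.35 FPKM in FMT-SP, against 3.78, 3.82, 3.88 and 2.86 FPKM in FMT-DSS and 2.38, 2.68, 2.32 and 1.66 FPKM in FMT-CON. The FMT-DSS libraries 1 to 3 lay close together, FMT-DSS 4 stood apart below them, and it lay only just above FMT-SP 1. The difference was -0.69 (SE 0.18) for FMT-SP against FMT-DSS, a ratio of means of 0.533 and the 5th smallest unadjusted p of all genes, and 0.50 (SE 0.18) for FMT-DSS against FMT-CON, a ratio of 1.59. Its exons share 418 bases with G6pdx on the opposite strand, which had 11.3 to 16.6 FPKM in FMT-SP, 11 to 14.1 FPKM in FMT-DSS and 10.6 to 19.4 FPKM in FMT-CON, overlapping in each comparison.

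Ikbke, on chromosome 1 (131254343 to 131279606, minus strand), encodes IKKepsilon, an IKK-related kinase better known for antiviral interferon signalling. It stood at 0.364, 0.201, 0.470 and 0.569 FPKM in FMT-SP, 1.37, 0.912, 1.87 and 0.971 FPKM in FMT-DSS and 0.297, 0.314, 0.717 and 0.447 FPKM in FMT-CON. The FMT-DSS libraries all stood at 0.912 FPKM or above and no other library passed 0.717 FPKM. Short stretches of its exons, 65 and 159 bases, lie opposite 2 antisense genes, of which Gm28913 averaged 0.152 FPKM; without strand such reads cannot be told apart either. This was the widest proportional gap among the 10 in FMT-DSS against FMT-CON, with ratios of means of 2.89 there and 0.313 for FMT-SP against FMT-DSS. The differences were 0.65 and -0.69 (SE 0.14 each), and -0.04 (SE 0.14) for FMT-SP against FMT-CON.

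The catalytic subunit genes of the IKK complex overlapped in every comparison. Ikbkb, on chromosome 8 (22659212 to 22706589, minus strand), encodes the main canonical kinase and had 9.84, 9.33, 9.80 and 11.7 FPKM in FMT-SP, 9.86, 6.94, 11.5 and 10.6 FPKM in FMT-DSS and 10.2, 8.71, 10.6 and 11.5 FPKM in FMT-CON. The 3 groups lay on top of each other, with FMT-DSS 2 the single low value and differences of 0.07, -0.08 and -0.01 (SE 0.14 each) in the 3 comparisons in the order given above. Chuk, on chromosome 19 (44073335 to 44107480, minus strand), encodes IKKalpha, shared by both pathways. It had 6.61, 5.53, 8.94 and 9.89 FPKM in FMT-SP, 10.6, 8.97, 10.2 and 9.73 FPKM in FMT-DSS and 9.02, 5.90, 6.62 and 6.03 FPKM in FMT-CON. FMT-DSS was high in all 4 libraries, and it overlapped FMT-CON only through FMT-CON 1. FMT-SP was split, with libraries 1 and 2 low and 3 and 4 in or next to the FMT-DSS range. The difference of Chuk was -0.34 (SE 0.17) for FMT-SP against FMT-DSS and 0.48 (SE 0.17) for FMT-DSS against FMT-CON.

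Both inhibitor genes overlapped in every comparison. Nfkbia, on chromosome 12 (55489410 to 55492647, minus strand), encodes IkB-alpha, the fast feedback inhibitor that NF-kB itself induces, and was the most abundant of the 10. It had 16.1, 17.2, 13.8 and 19.3 FPKM in FMT-SP, 14.7, 38.9, 26.9 and 28.3 FPKM in FMT-DSS and 16.4, 13.1, 23.2 and 10.3 FPKM in FMT-CON. FMT-DSS libraries 2 to 4 were above all others while FMT-DSS 1 lay inside the range of FMT-SP and FMT-CON. The difference was -0.61 (SE 0.27) for FMT-SP against FMT-DSS and 0.73 (SE 0.27) for FMT-DSS against FMT-CON. Without FMT-DSS 2 and 4 it became -0.26 and 0.38.

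Nfkbie, on chromosome 17 (45555703 to 45563169, plus strand), encodes IkB-epsilon, a slower inhibitor. It had 0.759, 0.689, 0.926 and 0.791 FPKM in FMT-SP, 0.482, 1.04, 1.003 and 0.629 FPKM in FMT-DSS and 1.23, 1.19, 0.863 and 0.518 FPKM in FMT-CON. The FMT-SP range lay within that of each other group, and the differences were 0.01, -0.12 and -0.11 (SE 0.14 each).

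**Figure D3:**
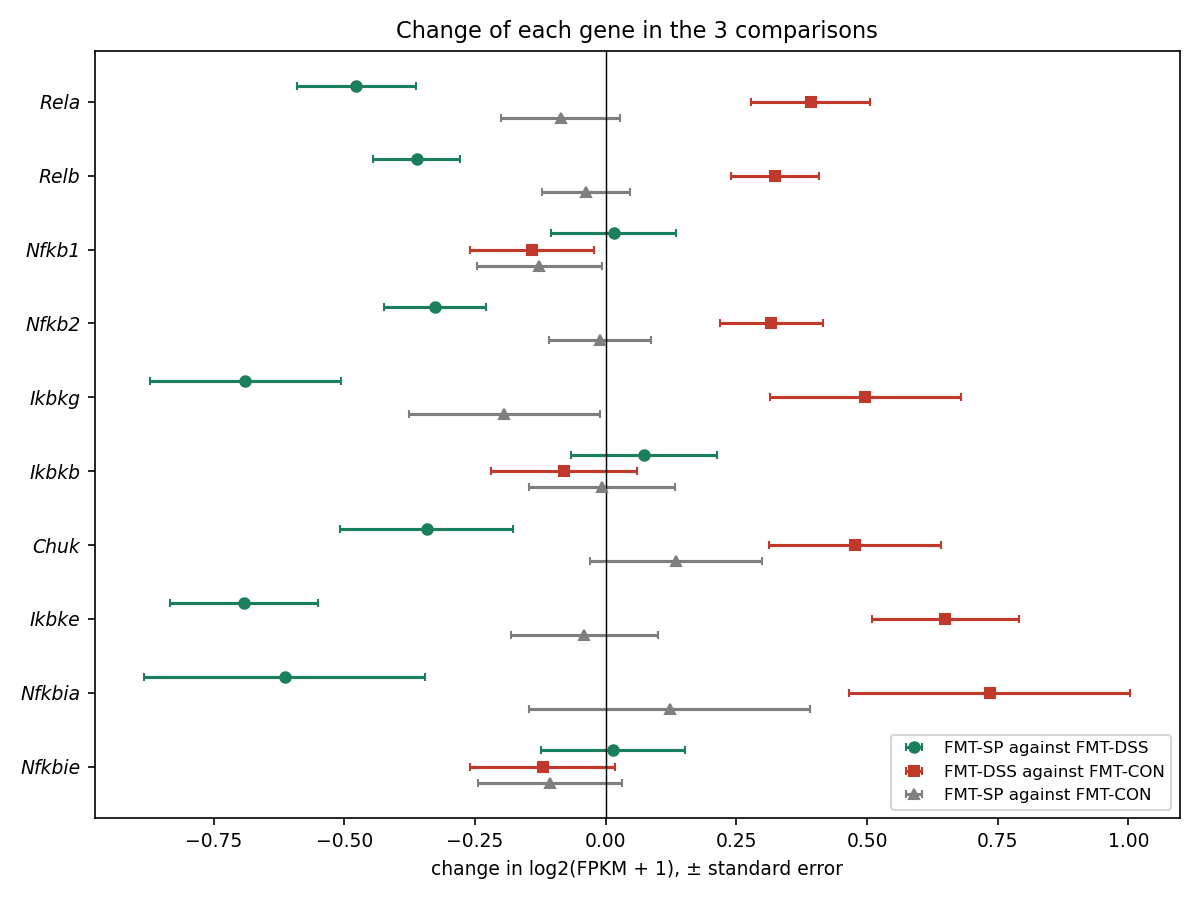
Difference between groups on the log2(FPKM + 1) scale (points, with SE as bars) for the 10 genes in the 3 comparisons (FMT-SP against FMT-DSS, then FMT-DSS against FMT-CON, then FMT-SP against FMT-CON). Rela, Relb, Nfkb2, Ikbkg, Ikbke, Chuk and Nfkbia are below 0 in the first and above 0 in the second, and all 10 lie between -0.19 and 0.13 in the third.

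Set in order of level, which FPKM allows because it is per length, the means over 12 libraries were 19.8 FPKM for Nfkbia, 10.04 for Ikbkb, 8.17 for Chuk, 6.76 for Rela, 4.75 for Nfkb1, 2.58 for Ikbkg, 0.843 for Nfkbie, 0.709 for Ikbke, 0.662 for Relb and 0.257 for Nfkb2. The canonical dimer genes, its inhibitor and its kinases were thus all above the noncanonical subunits Relb and Nfkb2. Only between Nfkb1 (3.94 to 5.98 FPKM) and Ikbkg (1.06 to 3.88 FPKM) did neighbouring ranges not overlap. Within a library the order was steadier: Rela was above Nfkb1 in all 12 and Nfkbia above Ikbkb in 11, whereas Ikbke was above Relb in 4 (FMT-SP 4, FMT-DSS 1 and 3 and FMT-CON 3).

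Ratios within a library do not depend on how that library was scaled. Nfkb1 over Rela, the balance of the p50 precursor and p65 messages, was 0.803 ± 0.0887 in FMT-SP, 0.549 ± 0.119 in FMT-DSS and 0.837 ± 0.116 in FMT-CON (SD, n = 4 each). FMT-DSS libraries 1 to 3, at 0.456 to 0.521, lay under all the others, and FMT-DSS 4, at 0.723, lay among them. Ikbkb over Ikbkg was 6.01 ± 2.28 in FMT-SP, 2.78 ± 0.793 in FMT-DSS and 4.75 ± 1.55 in FMT-CON, and Ikbkb over Chuk was 1.36 ± 0.274, 0.981 ± 0.163 and 1.53 ± 0.322 in the same groups. Nfkbia over Rela, the inhibitor against its main target, was 2.91 ± 0.438 in FMT-SP, 3.31 ± 1.38 in FMT-DSS and 2.68 ± 1.33 in FMT-CON, with ranges that overlapped widely.

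**Figure D4:**
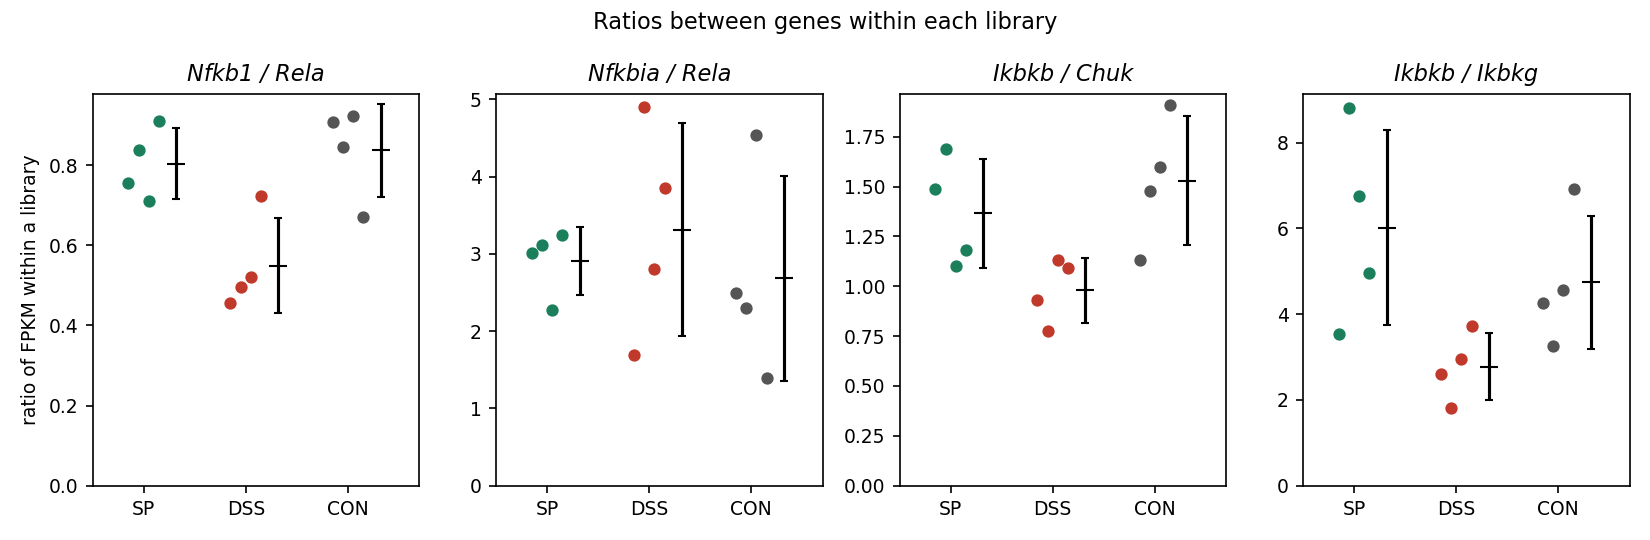
Ratio of FPKM between pairs of genes within each library (points) with group means and SD (bars), n = 4 a group. Nfkb1 over Rela is lowest in FMT-DSS libraries 1 to 3, at 0.456 to 0.521, and Nfkbia over Rela overlaps across the groups.

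Across the rest of the pathway few genes separated the groups, as was so over all genes. Among all genes averaging 0.1 FPKM or more, each direction held 0.277% to 1.35% in the 3 comparisons. Of 112 other pathway genes in 7 lists, 111 were in the table and 74 were tested, and 0 passed the adjusted limma test in any comparison. In FMT-SP against FMT-DSS 3 of the 74 had an unadjusted p under 0.05 (4.05%, against 2.5% of all genes), with 34 higher and 40 lower means and a median difference of -0.02, beside 0.03 for all genes. In FMT-DSS against FMT-CON 3 did (4.05%, against 4.06%), with 32 higher and 42 lower and a median of -0.02, beside -0.04. In FMT-SP against FMT-CON 0 did, with 25 higher and 49 lower and a median of -0.03, beside -0.01.

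By role, the other subunits and inhibitors (8 tested of 10) had 0 genes under an unadjusted p of 0.05 in any comparison. Nfkbiz encodes a nuclear IkB that helps to induce a subset of targets. It had 2.48 ± 0.624 FPKM in FMT-SP, 3.27 ± 0.578 FPKM in FMT-DSS and 2.29 ± 0.886 FPKM in FMT-CON (SD, n = 4 each), and its groups overlapped. The beta inhibitor gene Nfkbib had 9.59 ± 1.09 FPKM in FMT-DSS and 8.35 ± 1.13 FPKM in FMT-CON, and the repressor gene Nkrf 6.56 ± 0.995 FPKM in FMT-SP and 5.30 ± 1.47 FPKM in FMT-DSS. Rel, the c-Rel subunit gene, was under the filter at 0.434 to 0.675 FPKM in FMT-SP, 0.299 to 0.696 FPKM in FMT-DSS and 0.357 to 0.579 FPKM in FMT-CON.

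Of 11 listed activators and regulators of the noncanonical pathway, 6 were tested and 0 were under the unadjusted threshold. All 6 had lower means in FMT-DSS than in FMT-CON (median -0.08), the opposite side from Relb and Nfkb2. Lower was also the commoner side over all tested genes, with a median of -0.035 and 40.3% of differences above 0. Listed genes under the filter are not in this count. Traf2, an adaptor that restrains the noncanonical kinase, had 1.80 ± 0.0829 FPKM in FMT-SP, 1.47 ± 0.272 FPKM in FMT-DSS and 1.74 ± 0.237 FPKM in FMT-CON, and Traf3, its partner, 9.67 ± 0.817, 8.11 ± 1.26 and 8.78 ± 1.51 FPKM in the same groups. Map3k14, which encodes the NF-kB-inducing kinase itself, was under the filter at 0.662 to 0.898 FPKM in FMT-SP, 0.902 to 1.24 FPKM in FMT-DSS and 0.756 to 1.01 FPKM in FMT-CON. Singled out after its values were seen, it was lower in every FMT-SP library than in any FMT-DSS library, by a margin too narrow to read at this depth.

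Upstream, the receptors and ligands of the canonical pathway (5 tested of 14) had 0 genes under the unadjusted threshold. The endotoxin co-receptor gene Cd14 had 0.902 to 2.07 FPKM in FMT-SP, 1.04, 13.6, 1.80 and 1.05 FPKM in FMT-DSS libraries 1 to 4 and 0.967 to 1.34 FPKM in FMT-CON, so that FMT-DSS 2 alone stood out. Tnfrsf1a, the main TNF receptor gene, was likewise highest in FMT-DSS 2 at 8.13 FPKM, with 3.69 to 4.02 FPKM in the other FMT-DSS libraries. Among the adaptors and upstream kinases (15 tested of 20), the Toll-like receptor adaptor gene Myd88 was the 1 gene under the unadjusted threshold, in FMT-DSS against FMT-CON, with 2.53 ± 0.488 FPKM in FMT-DSS and 3.39 ± 0.393 FPKM in FMT-CON. Tbk1, the closest relative of Ikbke, had 14.8 ± 0.578 FPKM in FMT-SP, 17.6 ± 2.39 FPKM in FMT-DSS and 15 ± 2.1 FPKM in FMT-CON, with overlap in both comparisons.

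The ubiquitin ligases and brakes (14 tested of 18) had 0 genes under the unadjusted threshold. Optn, a ubiquitin-binding brake on NEMO signalling, had 5.04 ± 0.228 FPKM in FMT-SP and 4.45 ± 0.359 FPKM in FMT-DSS. The modifiers of the subunits (14 of 14 tested) had 6 higher and 8 lower means in FMT-SP against FMT-DSS, with a median of -0.01. Ehmt1, a histone methyltransferase gene, had 6.43 ± 0.392 FPKM in FMT-SP and 7.16 ± 1.24 FPKM in FMT-DSS, with overlap.

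Of the target genes of NF-kB (12 tested of 25), 2 were under the unadjusted threshold in each comparison with FMT-DSS. Over all genes the share was 2.5% in FMT-SP against FMT-DSS and 4.06% in FMT-DSS against FMT-CON. In FMT-SP against FMT-DSS 4 had higher and 8 lower means (median -0.09), and in FMT-DSS against FMT-CON 8 had higher and 4 lower means (median 0.06). Icam1, an endothelial adhesion molecule, had 0.890, 1.27, 1.22 and 0.346 FPKM in FMT-SP, 0.986, 9.57, 1.17 and 6.79 FPKM in FMT-DSS and 0.876, 0.764, 1.05 and 0.679 FPKM in FMT-CON. FMT-DSS 2 and 4 were far above all others for Icam1 and FMT-DSS 1 and 3 were not, whereas Rela, Nfkb2, Ikbke and Ikbkg were at their highest in FMT-DSS 3. Relb, at 1.02 and 1.12 FPKM, was highest in FMT-DSS 2 and 4, as Icam1 was. The anti-apoptotic gene Bcl2l1 was the only target whose FMT-DSS values, 33.9 ± 3.40 FPKM, did not overlap those of FMT-CON, 28.7 ± 2.03 FPKM.

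Of the 13 targets under the filter, 9 were highest in FMT-DSS 2, 3 in FMT-SP 3 and 1 in FMT-SP 1. The following were singled out after their values were seen. The neutrophil chemokine gene Cxcl1 stood at 4.89 FPKM in FMT-DSS 2 and 0.849 FPKM in FMT-DSS 4, against 0.0286 and 0.0998 FPKM in FMT-DSS 1 and 3 and at most 0.22 FPKM in FMT-SP and 0.464 FPKM in FMT-CON. The monocyte chemokine gene Ccl2 had 2.24 FPKM in FMT-DSS 2 and was listed at 0 in FMT-DSS 3 and 4, and the vessel adhesion gene Selp had 2.48 FPKM in FMT-DSS 2 and at most 0.0334 FPKM in any other library. Tnf itself was at most 0.114 FPKM in all 12 libraries.

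**Figure D5:**
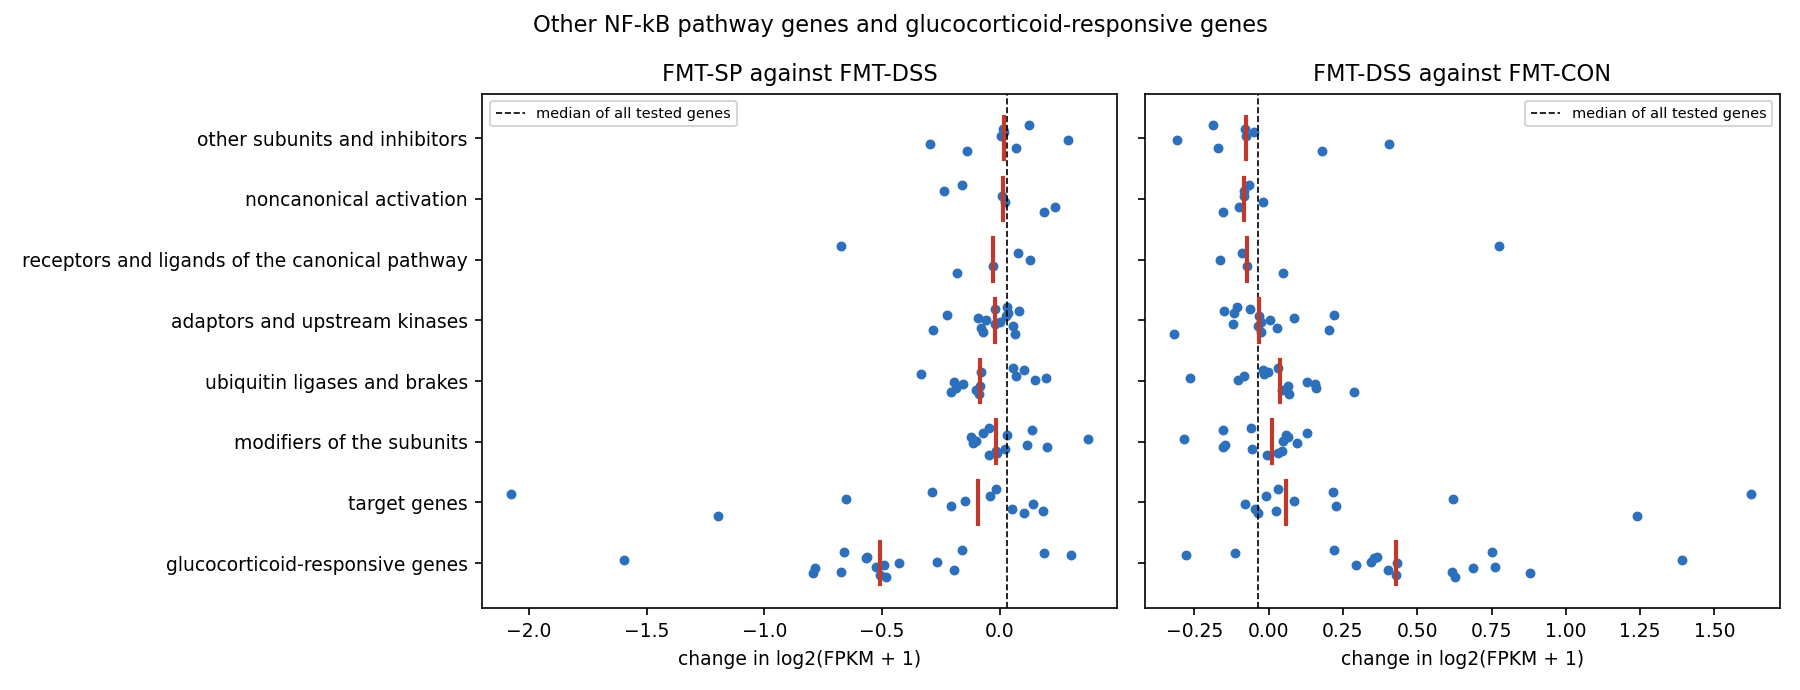
Other NF-kB pathway genes by role, with the difference on the log2(FPKM + 1) scale for each tested gene (points), the median of each list (bars) and that of all tested genes (dashed line), in FMT-SP against FMT-DSS on the left and FMT-DSS against FMT-CON on the right. Medians of the 7 NF-kB lists lie between -0.09 and 0.06, and those of the glucocorticoid-responsive list at -0.51 on the left and 0.43 on the right.

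Nfkbia is also a target of the glucocorticoid receptor, so a list of 17 glucocorticoid-responsive genes was set beside it. None of the 17 passed the adjusted test. The list was chosen with earlier results of these data known, so its counts are descriptions. In FMT-SP against FMT-DSS 15 had lower means and 7 an unadjusted limma p under 0.05, beside 2.5% of all genes. The median was -0.51, beside 0.03 for all genes. In FMT-DSS against FMT-CON 15 had higher means and 8 an unadjusted limma p under 0.05, beside 4.06% of all genes. The median was 0.43, beside -0.035 for all genes. In FMT-SP against FMT-CON 0 had such a p, beside 0.358% of all genes, with a median of 0.03, beside -0.008. Pdk4, which restrains glucose oxidation, had 2.37 ± 0.757 FPKM in FMT-SP, 4.73 ± 0.808 FPKM in FMT-DSS and 2.62 ± 0.843 FPKM in FMT-CON, with no overlap of FMT-DSS with either group. Sgk1, a kinase gene induced by steroid hormones, had 27.3 ± 7.58 FPKM in FMT-SP and 47.0 ± 8.38 FPKM in FMT-DSS, and Fkbp5, a brake on the receptor, 29.4 ± 7.87 FPKM in FMT-DSS and 18.3 ± 1.05 FPKM in FMT-CON, again without overlap.

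The genes most like Nfkbia over the 12 libraries, among 7888 compared by Pearson's r of log2(FPKM + 1), were Errfi1 (r 0.95, Spearman's rho 0.90), Ddit4 (r 0.95, rho 0.97), Spg21 (r 0.92), Mknk2 (r 0.91) and Txnip (r 0.91). Ddit4 is on the glucocorticoid-responsive list, with 41.4 FPKM in FMT-SP, 60.8 FPKM in FMT-DSS and 35.6 FPKM in FMT-CON on average. The genes most like Ikbkg were Lingo3 (r 0.90, rho 0.95), Mrpl9 (r 0.74), Bcl2l1 (r 0.72), Txnip (r 0.71) and Spsb1 (r 0.70). Those most like Rela were Ppp1r1b (r 0.74, rho 0.69), Usp54 (r 0.74), Smg5 (r 0.73), Lingo3 (r 0.72) and Tbcd (r 0.70). Among the 7888 genes compared, likeness was therefore closest for Nfkbia and loosest for Rela. The highest of them for Rela, Ppp1r1b, is a marker of striatal neurons. Nfkb2 and Ikbke, under the minimum of 5 FPKM for this comparison, correlated with Rela at 0.82 and 0.81. They were selected, as Rela was, with their group differences known, so these values cannot be ranked beside those of the 7888. The points share libraries and groups, so these are descriptions.

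The tissue markers bear on these values, since in bulk tissue fewer cells of a type and less RNA per cell cannot be told apart. Hippocampal markers (8 of 8 in the table) summed to 196 to 224 FPKM in FMT-SP, 195 to 259 FPKM in FMT-DSS and 146 to 219 FPKM in FMT-CON. Microglial markers (10 of 10) summed to 137 to 160, 94.4 to 151 and 135 to 159 FPKM, and endothelial markers (9 of 9) to 115 to 160, 109 to 177 and 115 to 150 FPKM, in the same groups. Astrocyte (7 of 7), neuron (7 of 7), oligodendrocyte (6 of 6), thalamic (6 of 6) and erythrocyte (5 of 5) markers also overlapped, erythrocyte markers between 124 and 1340 FPKM in FMT-SP, 218 and 717 FPKM in FMT-DSS and 138 and 389 FPKM in FMT-CON. Pituitary and hypothalamic markers (6 of 6) were at 3580 FPKM in FMT-CON 3 and at most 24.6 FPKM elsewhere.

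Striatal markers (8 of 8) summed to 52.1 to 118 FPKM in FMT-SP, 79.7 to 360 FPKM in FMT-DSS and 58.8 to 175 FPKM in FMT-CON, with the 360 FPKM in FMT-DSS 3, the library where Rela, Nfkb2, Ikbkg and Ikbke were highest. Without that library Rela differed by -0.42, Ikbkg and Ikbke by -0.66 and -0.57, and Nfkb2 by -0.22, in FMT-SP against FMT-DSS. For covariates, log2(FPKM + 1) of each striatal and choroid plexus marker was centred on its mean and averaged by list. With these covariates the differences were -0.43 for Rela, -0.67 for Ikbkg, -0.66 for Ikbke and -0.25 for Nfkb2. Choroid plexus markers (7 of 7) summed to 1310 to 2930 FPKM in all FMT-DSS libraries but ran between 19.1 and 3840 FPKM in FMT-SP and between 31.8 and 3610 FPKM in FMT-CON. The choroid-rich libraries FMT-SP 2 and 3 had 5.50 and 6.09 FPKM of Rela, and FMT-CON 1 and 2 had 6.58 and 5.70 FPKM. The choroid-poor libraries FMT-SP 1 and 4 had 5.34 and 5.95 FPKM, and FMT-CON 3 and 4 had 5.10 and 7.32 FPKM. The part of choroid plexus tissue in the Rela values was not tested.

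Neutrophil and monocyte markers (7 of 7, Ly6g at 0 in 9 libraries) summed to 0.676 to 9.98 FPKM in FMT-SP, 0.336, 178, 1.79 and 21.8 FPKM in FMT-DSS libraries 1 to 4 and 0.751 to 7.99 FPKM in FMT-CON. FMT-DSS 2 and 4 are thus the libraries high in these markers, in Icam1 and in Cxcl1. In FMT-DSS 1 and 3 these markers were no higher than in the other groups. Rela had 8.71 and 9.55 FPKM there, Ikbkg 3.78 and 3.88 FPKM and Ikbke 1.37 and 1.87 FPKM. In FMT-DSS 2 and 4 Rela had 7.94 and 7.34 FPKM, Ikbkg 3.82 and 2.86 FPKM and Ikbke 0.912 and 0.971 FPKM. The part of these cells in the values was not tested. Mitochondrially encoded genes made up 24% of the summed FPKM in FMT-SP 4, 29.0% in FMT-DSS 4 and 27.7% in FMT-CON 4, and 15.9% to 20.3% in the other 9 libraries. With those genes left out of the scaling, Rela, Relb, Nfkb2, Ikbkg and Ikbke did not overlap in FMT-SP against FMT-DSS, and in FMT-DSS against FMT-CON the same genes without Rela did not. Rela then had 7.68 to 9.48 in FMT-DSS and 5.11 to 8.07 in FMT-CON on the rescaled FPKM.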

How the data were processed

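Gene expression was measured by RNA sequencing of hippocampal tissue in 12 libraries. The deposited table holds FPKM values that the authors computed, per the file headers. The submitters' processing notes name HISAT2 2.0 and the genome build mm8 with no role. The sources used here do not give the counter, the annotation or the strand setting. Groups and replicate numbers come from the sample titles.

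The genes and lists were chosen with earlier results of these data known. Genes averaging 1 FPKM or more were fitted on log2(FPKM + 1) with limma 3.58.1 (R 4.3.3), with 3 groups, a mean-variance trend, two-sided tests and Benjamini-Hochberg adjustment over 12559 genes. The method was tested on simulated data with independent noise and shifts larger than any difference of the described genes. The simulated libraries held no tissue or batch differences. That test therefore does not show whether differences of the size seen here would be found. Since FPKM are not counts, mapped fragments were estimated from low-value steps in 3970 genes with 1 transcript; 37.9% to 40.7% of low values lay within 0.05 of a whole fragment, against 10% by chance. Fragments per gene are rough, as they use the longest transcript, and intervals are not given. Depth thus limits the 4 genes under 1 FPKM most.

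Besides the 10 genes, the text names, per pathway list and comparison, up to 4 tested genes whose groups do not overlap, or otherwise the 2 of smallest unadjusted p; for Rela, Ikbkg and Nfkbia, the 5 most correlated genes averaging 5 FPKM or more. Genes outside this rule are said to be singled out. One gene that the rule names is not reported here. Gene positions and overlaps are from GENCODE vM21 (GRCm38), and promoters from RefSeq (GRCm38.p6); neither is the build in the notes, so neither was joined to coordinates of the files.

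The labels do not say that a number pairs libraries, and the main fit did not pair them. For FMT-SP against FMT-DSS, the deviations of same-numbered libraries correlated at 0.108 (number 3) to 0.694 (number 4). Alternatives were another pseudocount, filters, rescaling, quantile normalization, array weights, tissue covariates, a replicate block and leaving out libraries.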

Additional observations from a re-analysis of the deposited data

Results flagged for a closer look

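In 30 groups of 4 libraries (10 genes in 3 groups) the highest or lowest library was compared with the spread of the others, and 2 stood apart; chance flags about 1 in 20 groups. Ikbkg had 2.86 FPKM in FMT-DSS 4, below the 3.78 to 3.88 FPKM of the other FMT-DSS libraries. Nfkb1 had 5.98 FPKM in FMT-CON 1, above the 4.71 to 4.91 FPKM of the other FMT-CON libraries. FMT-DSS 4 is also the library with the highest share of mitochondrially encoded genes, 29.0%, and the lowest summed microglial markers, 94.4 FPKM; their part in the Ikbkg value was not tested.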

How the results depend on the processing

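None of the 10 genes passed the adjusted limma test under any alternative run. The smallest adjusted limma p any of them reached was 0.0623, for Ikbke in FMT-SP against FMT-DSS. That run had the averaged choroid plexus and striatal markers as covariates. With those covariates 14 genes in all passed in that comparison, of which 1 was a pathway gene (Icam1, -1.47, adjusted p = 0.0366); the cause was not tested. The replicate block called 0 genes in each comparison and changed no call. Same-numbered libraries correlated at 0.007 to 0.723 in FMT-DSS against FMT-CON and -0.451 to 0.841 in FMT-SP against FMT-CON. In each comparison the libraries numbered 4 had the highest of these correlations. The numbers were not taken to pair libraries in any comparison. The signs of Rela, Ikbkg, Chuk and Nfkbia held in 25 of 25 alternatives, and those of Relb, Nfkb2 and Ikbke in 24 of 24, in both comparisons with FMT-DSS. Several of these alternatives cannot change a difference, only its spread or its adjusted p. They are other filters, the replicate block, a fit of only the groups compared and leaving out a library of the third group. The genes were also selected with their differences known. With a pseudocount of 0.1 FPKM in place of 1, the differences of the low genes grew, for Ikbke to -1.47 in FMT-SP against FMT-DSS and 1.36 in FMT-DSS against FMT-CON, for Nfkb2 to -1.09 and 1.03 and for Relb to -0.78 and 0.68. Leaving out each library in turn gave 5 to 6 genes that did not overlap in each comparison with FMT-DSS. In FMT-SP against FMT-CON it gave 0 to 1, the 1 being Nfkb1 without FMT-SP 4 or without all libraries numbered 4 (1). Leaving out a library can keep or raise such a count but cannot lower it. These counts therefore do not show how firm the separation is. The overlap counts under other scalings and left-out libraries were added after seeing the data, as was the lower pseudocount with the lower filter. Depth limits Nfkb2, Relb, Ikbke and Nfkbie most.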
